A study of Mus musculus with 4 samples.

Results

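The enzymes that build fatty acids and cholesterol were measured in OP9M2 and BFC012, mouse stromal lines of which OP9M2 sustains human blood progenitors in co-culture and BFC012 does not. OP9M2 is a clonal line, labelled as mesenchymal stem cells, which was derived from OP9 stroma, and BFC012 is labelled as a fibroblast line from fetal liver. Both had received 2000 rad of irradiation and were collected 48 hours after seeding (25000 cells/cm2), with no blood cells in the dish. OP9M2 was kept in 20% fetal bovine serum and BFC012 in 10%, so that the effects of medium and of line cannot be told apart. Each line gave 2 Affymetrix arrays, which the labels call biological replicates, and each line is a single line, so the p-values measure only the spread between these arrays. The members were fixed by name as 36 genes of 18193 measured, 17 in the fatty acid and glycerolipid branch and 19 in the sterol branch, and were read with the 85 probe sets (groups of short probes for 1 transcript) that name 1 of these genes alone. Every one of the 36 genes had at least 1 such probe set and passed the background level on at least 1 array.

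Cells make fatty acids from citrate. Acly splits citrate into acetyl-CoA, Acaca carboxylates it, Fasn joins the pieces to palmitate, and Elovl, Scd and Fads enzymes lengthen the chain or make it unsaturated before Gpam, Agpat2, Lpin1, Dgat1 and Dgat2 build it into glycerolipid and triglyceride. The sterol branch starts from the same acetyl-CoA, runs through mevalonate and farnesyl diphosphate to squalene, and ends in cholesterol. Both branches are known targets of the SREBP transcription factors (Srebf2 encodes the sterol form), which the escort protein Scap carries out of the endoplasmic reticulum when sterol is scarce and which Insig1 and Insig2 hold back when it is plentiful.

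Promoter sequences were examined because SREBPs act at sterol elements next to NF-Y sites, which carry the letters CCAAT. RefSeq windows (build GRCm38.p6) from 250 bases before to 50 bases after a transcript start were given for 27 of the 36 genes. Both strands were searched for TCACNCCAC, a form of the sterol element, for CCAAT and for CACGTG, the E-box. The letters CCAAT stood in 15 of 20 sterol branch windows (75%), in 7 of 15 fatty acid and glycerolipid windows (46.7%) and in 37.4% of all 32851 windows. TCACNCCAC stood in 1 of the 20 sterol windows, that of Hmgcs1, in 0 of the 15 others and in 1.24% of all windows, and CACGTG in 4 of 20, 1 of 15 and 7.15%. Windows of Hmgcs1, Insig1, Insig2 and Fads2 are shown 5′ to 3′ with the matches in capitals, where ATTGG is CCAAT read on the other strand. No window of Fdps is shown. Another Insig2 window (chr1:121327975-121328274, minus strand) is not printed and held none of the 3 motifs. A match is a description of letters and not a measured site. The window of Hmgcs1 (chr13:119690101-119690400, plus strand) held the sterol element and 4 CCAAT matches, that of Insig1 (chr5:28071162-28071461, plus strand) held 1 CCAAT and 1 E-box, and that of Insig2 at its most upstream start (chr1:121332540-121332839, minus strand) held 3 CCAAT matches, while a further Insig2 start (chr1:121327629-121327928, minus strand) and Fads2 (chr19:10101454-10101753, minus strand) held none of the 3 motifs.
Hmgcs1: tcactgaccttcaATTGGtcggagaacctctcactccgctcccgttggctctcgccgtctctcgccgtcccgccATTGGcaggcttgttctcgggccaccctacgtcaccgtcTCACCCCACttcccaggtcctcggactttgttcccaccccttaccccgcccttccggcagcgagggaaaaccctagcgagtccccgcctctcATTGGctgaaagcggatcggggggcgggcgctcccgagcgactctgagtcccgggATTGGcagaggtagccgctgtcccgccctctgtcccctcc
Insig1: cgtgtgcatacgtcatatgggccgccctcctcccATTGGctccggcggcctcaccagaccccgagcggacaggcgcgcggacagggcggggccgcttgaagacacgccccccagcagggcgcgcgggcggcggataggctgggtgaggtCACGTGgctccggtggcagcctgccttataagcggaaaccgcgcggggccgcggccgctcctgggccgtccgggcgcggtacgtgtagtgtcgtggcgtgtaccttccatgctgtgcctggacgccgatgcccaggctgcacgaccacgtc
Insig2, upstream start: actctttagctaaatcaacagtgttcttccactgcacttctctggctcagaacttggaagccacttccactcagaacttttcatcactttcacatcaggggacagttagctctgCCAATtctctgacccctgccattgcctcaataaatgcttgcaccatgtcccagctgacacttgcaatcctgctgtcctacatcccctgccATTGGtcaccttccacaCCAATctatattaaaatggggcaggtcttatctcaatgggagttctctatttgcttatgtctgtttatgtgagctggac
Insig2, downstream start: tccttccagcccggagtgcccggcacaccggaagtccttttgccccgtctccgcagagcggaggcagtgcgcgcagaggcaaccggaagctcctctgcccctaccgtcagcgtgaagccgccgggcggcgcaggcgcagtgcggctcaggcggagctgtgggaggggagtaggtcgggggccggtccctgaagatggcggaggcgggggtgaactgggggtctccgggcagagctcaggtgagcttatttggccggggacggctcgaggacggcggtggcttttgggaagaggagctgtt
Fads2: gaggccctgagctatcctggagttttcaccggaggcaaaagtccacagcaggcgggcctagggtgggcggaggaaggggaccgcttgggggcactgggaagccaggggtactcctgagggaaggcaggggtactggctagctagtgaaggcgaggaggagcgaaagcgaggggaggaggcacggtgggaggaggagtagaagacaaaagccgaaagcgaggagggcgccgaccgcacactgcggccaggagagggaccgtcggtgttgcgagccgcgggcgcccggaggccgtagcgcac

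All levels below are RMA values on the log2 scale and all differences are OP9M2 minus BFC012 in log2 units ± SE. A gene is represented by whichever of its probe sets was brightest on average over the 4 arrays, and levels of different probe sets are not compared. A gene was called higher or lower where limma gave an adjusted p under 0.05 over 45037 probe sets and a difference of at least 1, a 2-fold change. By this rule 4.46% of all probe sets were called, and 2.36% of all genes were called higher and 3.56% lower. As background served 6.09, a level that 95% of 81 probe sets for olfactory, vomeronasal and trace amine receptors did not exceed. The arrays of OP9M2 differed more from each other than those of BFC012, with 2842 against 291 probe sets at least 1 log2 unit apart. OP9M2 replicate 2 stood apart in its poly-A control probe sets (median 3.66 against 6.12 to 6.97 on the other arrays). Its 18S control probe sets were the brightest (median 14.1 against 12.7 to 13.2). For some of the named genes that moved when an OP9M2 array was left out, the value without it is given. A fit without 1 OP9M2 array takes its spread from the BFC012 arrays alone. These lay closer together, so that calls come more easily there. Of 8 mesenchymal markers, 6 were above background on at least 1 array, but Thy1 and Lum were not on any. Col1a2, at 14.2 and 14.1 in OP9M2, was near background in BFC012 (6.18 and 6.07). It was the 1 marker of the 8 called higher in OP9M2, and 0 were called lower. Pdgfra was at 12.2 and 10.8 in OP9M2, against 7.77 and 8.48 in BFC012 (3.37 ± 0.56, limma adjusted p = 0.0513). Pdgfrb was at 12.7 and 11.3 in OP9M2, against 9.58 and 10.1 in BFC012 (2.18 ± 0.51, adjusted p = 0.109). Col1a1 (13.1 on both arrays), Col3a1 (12.4 and 12.8) and Vim (13.8 and 14.0) were high in BFC012. Of the 8 differences, 6 were positive and 2 negative. Of 7 measured hepatocyte markers 2 were above background on at least 1 array, and the defining Alb and Afp were not on any. Of 6 mesothelial markers, 4 were called lower in OP9M2, where they were below background on both arrays: Gpm6a (-8.28), Bnc1 (-7.58), Upk3b (-6.00) and Wt1 (-3.77). All 6 were above background on both BFC012 arrays, with a median difference of -4.89 between the lines, and their part in the differences of the lipid genes was not tested. Of 6 macrophage markers, 1 was called lower in OP9M2 and 0 higher.

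In the fatty acid branch Fads2, a desaturase of polyunsaturated fatty acids, was lower in OP9M2, and no other gene was called. Of the 17 fatty acid and glycerolipid genes, limma called 1 lower (Fads2) and 0 higher, against 3.56% and 2.36% of all genes. At an unadjusted p under 0.05, 4 of the 17 were lower and 2 higher, against 12.8% and 10.5% of all genes. The median difference of the 17 was -0.20, and that of all genes was 0.032. Both OP9M2 arrays lay above both BFC012 arrays in 4 of the 17 and below them in 5, where 28.4% and 24.8% of all genes did so, and in 8 genes the lines overlapped.

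Fads2, the desaturase that takes the opening step from the essential fatty acids linoleate and alpha-linolenate, was at 8.95 and 8.86 in OP9M2, against 10.7 and 10.8 in BFC012 (replicate 1 first, as in all such pairs). The lines were clearly separated, with the arrays of each line close together. The difference was -1.87 ± 0.14, 3.65-fold lower in OP9M2 (limma adjusted p = 0.00688). The other 2 probe sets of Fads2 were also called lower, at -1.63 ± 0.18 (adjusted p = 0.0205) and -1.16 ± 0.14 (adjusted p = 0.0226). Without OP9M2 replicate 1 the difference was -1.91, and without replicate 2 it was -1.82. Without BFC012 replicate 1 it was -1.92 (adjusted p = 0.144) and without BFC012 replicate 2 it was -1.81 (adjusted p = 0.168), neither called. With either BFC012 array left out limma called 0 probe sets, with 4568 and 4517 at an unadjusted p under 0.05.

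The enzymes that act after Fads2 lay on the same side without being called. Elovl5, which lengthens polyunsaturated chains, was at 11.1 and 11.5 in OP9M2, against 12.4 and 12.3 in BFC012 (-0.9997 ± 0.20, adjusted p = 0.0749), and its other probe set differed by -1.12 ± 0.19 (adjusted p = 0.0532). Fads1, the desaturase of the later step that yields arachidonate, was at 11.0 and 9.92 in OP9M2, against 11.4 on both BFC012 arrays (-0.93 ± 0.38, adjusted p = 0.295). In all 3 genes both OP9M2 arrays lay below both BFC012 arrays, which held for 24.8% of all genes. The 3 were not set out as a group beforehand. The OP9M2 arrays disagreed on the size for Fads1. Fads1 differed by -1.46 without OP9M2 replicate 1 and by -0.39 without replicate 2, whereas Elovl5 differed by -0.78 and by -1.22. The other probe set of Fads1 differed by 0.05 ± 0.18. Fads1 and Fads3 are the neighbours of Fads2 on chromosome 19 in the RefSeq gene table, and Fads3, a related desaturase, lay on the other side at 0.59 ± 0.16 (adjusted p = 0.138).

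**Figure D1:**
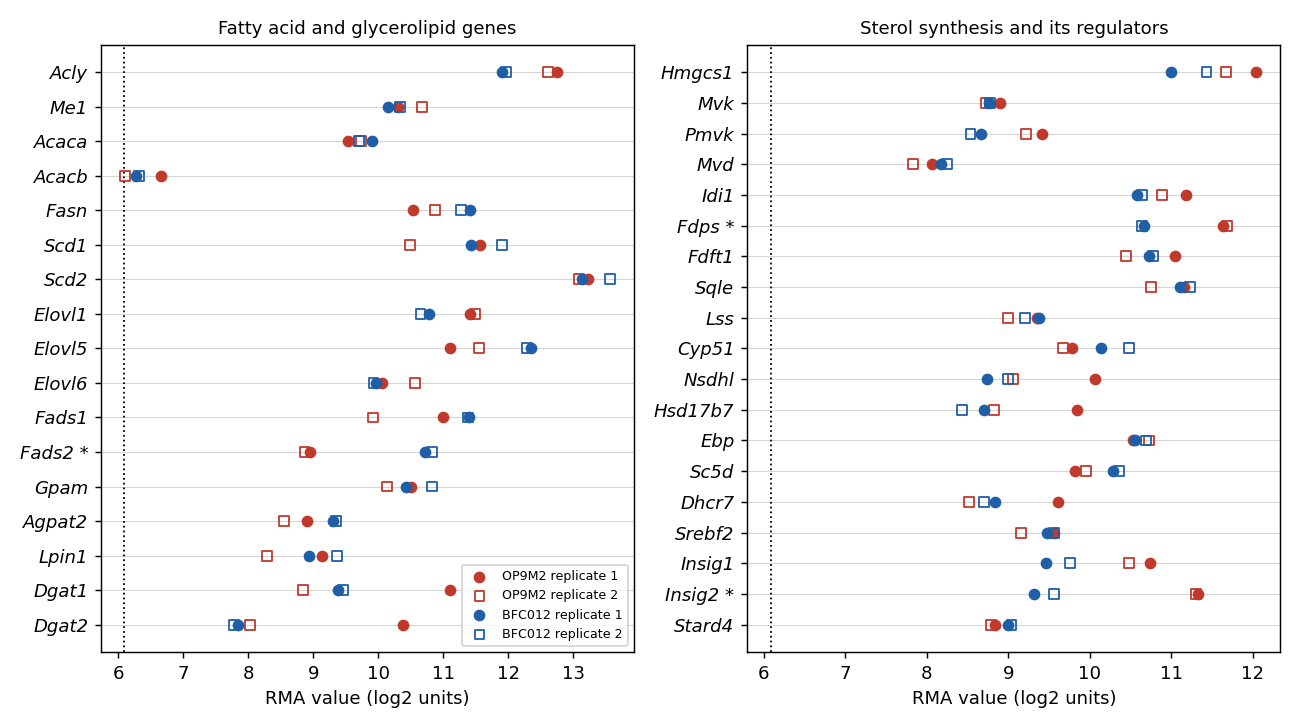
RMA value (horizontal axes, log2 units) of the representing probe set of each of the 17 fatty acid and glycerolipid genes (left) and 19 sterol genes (right) on each of the 4 arrays, in pathway order; OP9M2 is drawn in red and BFC012 in blue, replicate 1 as filled circles and replicate 2 as open squares; a dotted line marks background (6.09) and an asterisk a called gene. Fads2 lies at 8.95 and 8.86 in OP9M2 against 10.7 and 10.8 in BFC012, Insig2 at 11.3 on both OP9M2 arrays against 9.32 and 9.56, and Dgat1 and Dgat2 stand high on OP9M2 replicate 1 alone.

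Acly, which supplies cytosolic acetyl-CoA to both branches, was at 12.7 and 12.6 in OP9M2, against 11.9 and 12.0 in BFC012. The lines did not overlap, and the difference of 0.75 ± 0.14 was below the 2-fold limit (1.68-fold, adjusted p = 0.0646). Of its 6 probe sets, 3 were not above background on any array. The other 2 that were above it differed by 0.90 ± 0.13 (adjusted p = 0.0412, under the fold limit) and 0.84 ± 0.15 (adjusted p = 0.0643). Acaca, the carboxylase that commits acetyl-CoA to fatty acids, was at 9.54 and 9.74 in OP9M2, against 9.91 and 9.71 in BFC012, so that the lines overlapped (-0.17 ± 0.16, adjusted p = 0.665). Acacb, the carboxylase linked to control of fatty acid oxidation, differed by 0.088 ± 0.23 close to background. Fasn, the synthase itself, was at 10.5 and 10.9 in OP9M2, against 11.4 and 11.3 in BFC012. It lay lower on both OP9M2 arrays but was not called (-0.64 ± 0.18, 1.56-fold, adjusted p = 0.150). Me1, which yields NADPH for the synthase, differed by 0.25 ± 0.19 and overlapped.

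Among the enzymes that shape the chain, Elovl1, which extends very long saturated chains, was at 11.4 and 11.5 in OP9M2, against 10.8 and 10.6 in BFC012. Its 4 probe sets differed by 0.71 to 0.81, and none was called (0.74 ± 0.14 for the representing probe set, adjusted p = 0.0670). Elovl6, the elongase of palmitate, differed by 0.36 ± 0.21 (adjusted p = 0.463). Scd1, which makes oleate from stearate, was at 11.6 and 10.5 in OP9M2, against 11.4 and 11.9 in BFC012. It overlapped because OP9M2 replicate 1 lay above BFC012 replicate 1 (-0.65 ± 0.41, adjusted p = 0.501). It differed by -1.19 without OP9M2 replicate 1 (adjusted p = 0.0709) and by -0.10 without replicate 2, and its other probe set differed by -0.78 ± 0.18 (adjusted p = 0.102). Scd2, the paralog used widely outside the liver, was at 13.2 and 13.1 in OP9M2, against 13.1 and 13.6 in BFC012 (-0.20 ± 0.20, adjusted p = 0.678), and its 3 probe sets went in both directions, from -0.68 to 0.15.

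Both enzymes of the last step to triglyceride differed more between the OP9M2 arrays than between the lines. The same held for 19 of the 36 members and for 9193 of all 18193 genes. Dgat2, which makes triglyceride from diacylglycerol, was at 10.4 and 8.03 in OP9M2, against 7.84 and 7.78 in BFC012 (1.39 ± 0.79, 2.63-fold, adjusted p = 0.446), and its other probe set gave 8.30 and 6.95, against 7.08 and 7.05. Dgat1, the other enzyme of that step, was at 11.1 and 8.84 in OP9M2, against 9.38 and 9.46 in BFC012 (0.55 ± 0.76, adjusted p = 0.787). OP9M2 replicate 1 was high for both genes, while replicate 2 lay close to BFC012 for Dgat2 and below it for Dgat1. Without OP9M2 replicate 2 the differences of Dgat2 and Dgat1 were 2.57 and 1.68, and without replicate 1 they were 0.22 and -0.58. Gpam (-0.31 ± 0.23), Agpat2 (-0.59 ± 0.18) and Lpin1 (-0.44 ± 0.34), which make phosphatidate and diacylglycerol, were not called. Lpin1 differed by -0.87 without OP9M2 replicate 1 and by -0.015 without replicate 2, and its other probe set by 0.14 ± 0.51.

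Some markers of adipocytes were also uneven between the OP9M2 arrays. Adiponectin, Adipoq, was at 12.8 in OP9M2 replicate 1 and at 5.41, 3.99 and 3.39 on the other arrays, all below background. The lipase Lipe was at 9.26 and 6.34 in OP9M2, against 6.85 and 7.14 in BFC012, and the lipid droplet protein Cidec was above background in OP9M2 replicate 1 alone (6.69). The mean of the 6 measured markers was 8.98 and 6.76 in OP9M2, against 5.06 and 4.94 in BFC012. In OP9M2, 3 of the 6 were at least 1 log2 unit higher in replicate 1 than in replicate 2. Retn was at 6.90 and 6.48 in OP9M2, against 6.83 and 6.66 in BFC012. Lep was not above background on any array, and Fabp4 was high on both OP9M2 arrays (13.7 and 13.1). The part of such cells in the values of Dgat1 and Dgat2 was not tested, and in total RNA more cells of a type and more RNA per cell cannot be told apart. Among the members, OP9M2 replicate 1 was at least 1 log2 unit above replicate 2 in 7 of 36 genes, Scd1, Fads1, Dgat1, Dgat2, Nsdhl, Hsd17b7 and Dhcr7, and at least 1 below in 0, where 4.47% and 2.93% of all genes were. In BFC012, 0 of the 36 differed that much between the arrays.

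**Figure D2:**
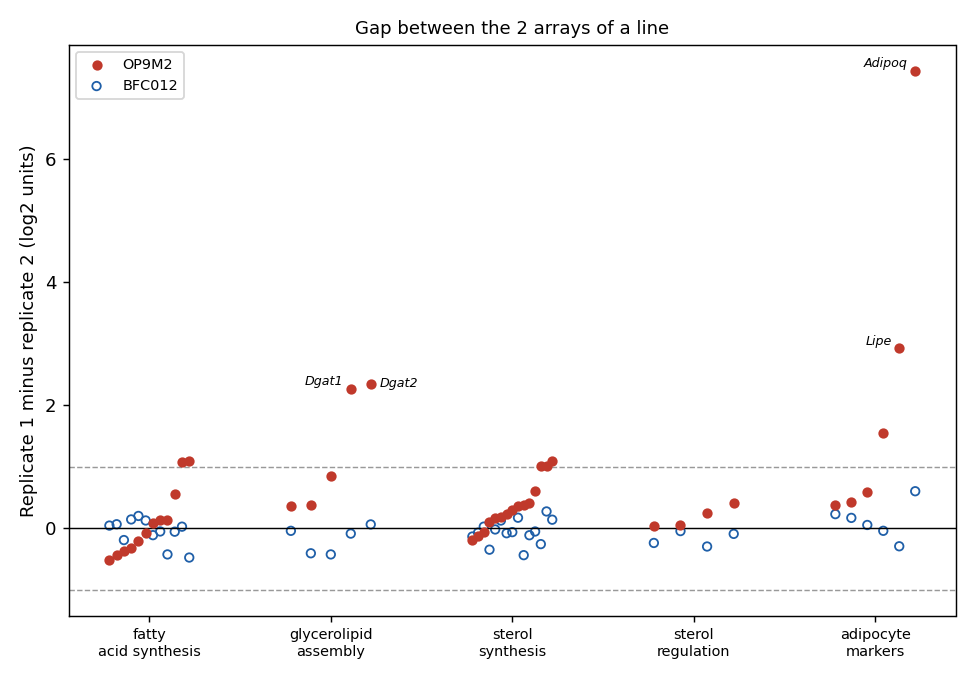
Difference between replicate 1 and replicate 2 (vertical axis, log2 units) within OP9M2 (red, filled) and within BFC012 (blue, open) for the genes of each group named on the horizontal axis, 1 point per gene and line, with dashed lines at 1 log2 unit in each direction. Dgat1 and Dgat2 lie at 2.26 and 2.35 in OP9M2, beside gaps of 7.43 for Adipoq and 2.92 for Lipe, and no gene shown reaches the dashed lines in BFC012.

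In the sterol branch the largest difference was that of a regulator, Insig2, and 1 enzyme, Fdps, was called as well. Of 19 genes limma called 2 higher in OP9M2, Insig2 and Fdps, and 0 lower, against 2.36% and 3.56% of all genes. At an unadjusted p under 0.05, 5 of the 19 were higher and 2 lower, against 10.5% and 12.8% of all genes. The median difference was 0.041, close to the 0.032 of all genes. Both OP9M2 arrays lay above both BFC012 arrays in 8 genes and below them in 4, against 28.4% and 24.8% of all genes, and the lines overlapped in 7.

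Insig2 was at 11.3 on both OP9M2 arrays, against 9.32 and 9.56 in BFC012. The gap between the lines was far wider than that between the arrays of either line. The difference was 1.88 ± 0.15, 3.67-fold higher in OP9M2 (adjusted p = 0.00887). All 3 of its probe sets were called higher, the other 2 at 2.07 ± 0.32 (adjusted p = 0.0457) and 2.45 ± 0.30 (adjusted p = 0.0262). The difference was 1.86 without OP9M2 replicate 1 and 1.89 without replicate 2. Without BFC012 replicate 1 it was 1.76 (adjusted p = 0.160) and without BFC012 replicate 2 it was 1.996 (adjusted p = 0.144), neither called. Insig1, which unlike Insig2 is itself a target of SREBPs, was at 10.7 and 10.5 in OP9M2, against 9.46 and 9.76 in BFC012. Both OP9M2 arrays were higher, but Insig1 was not called (0.9995 ± 0.18, adjusted p = 0.0642). Its difference was 1.13 without OP9M2 replicate 2 and 0.87 without replicate 1.

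Of the partners of the Insig genes, the transcription factor was not called and its escort was called lower. Srebf2 was at 9.56 and 9.15 in OP9M2, against 9.47 and 9.56 in BFC012, and the lines overlapped (-0.16 ± 0.19, adjusted p = 0.739). Scap, which is no member, was at 10.4 on both OP9M2 arrays, against 11.3 and 11.6 in BFC012, and was called lower (-1.05 ± 0.15, 2.07-fold, adjusted p = 0.0368). The mean of all probe sets of Scap was not called (-0.57, adjusted p = 0.0858), nor was Scap without BFC012 replicate 1 (adjusted p = 0.258) or 2 (adjusted p = 0.329). Stard4, a carrier that moves cholesterol between membranes, differed by -0.20 ± 0.13 (adjusted p = 0.509).

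Fdps, which joins isoprene units to farnesyl diphosphate, the branch point to sterols and to protein prenylation, was at 11.6 and 11.7 in OP9M2, against 10.7 and 10.6 in BFC012. The arrays within a line agreed closely, and the difference of 1.01 ± 0.13 (2.01-fold, adjusted p = 0.0288) was just over the fold limit. Without OP9M2 replicate 2 it was 0.98 with an adjusted p of 0.0297 and so was no longer called, and centring each array on its median gave 0.99. It was not called without BFC012 replicate 1 (1.02, adjusted p = 0.306) or 2 (0.99, adjusted p = 0.315) either. Its other probe set was not above background on any array.

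The other 5 members of the mevalonate pathway did not go one way, and none was called with its representing probe set. Hmgcs1, which makes HMG-CoA, was at 12.0 and 11.7 in OP9M2, against 11.0 and 11.4 in BFC012 (0.64 ± 0.23, adjusted p = 0.239). Its other probe sets differed by 0.55 to 1.31, and the only one of the 5 that was called (1.31 ± 0.21, adjusted p = 0.0469) was not above background on any array, so no fold is given. Pmvk, the phosphomevalonate kinase, was at 9.41 and 9.22 in OP9M2, against 8.66 and 8.54 in BFC012 (0.72 ± 0.15, adjusted p = 0.0853), and Idi1, which isomerizes the isoprene unit, differed by 0.42 ± 0.16 (adjusted p = 0.267). In these 3 genes both OP9M2 arrays lay above both BFC012 arrays, which held for 28.4% of all genes. Mvd, the decarboxylase, was at 8.07 and 7.83 in OP9M2, against 8.17 and 8.25 in BFC012, so that both OP9M2 arrays lay below (-0.26 ± 0.15), and Mvk, the mevalonate kinase, overlapped (0.041 ± 0.14).

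From squalene onward the genes were near equal or split. Fdft1, which makes squalene, was at 11.0 and 10.4 in OP9M2, against 10.7 and 10.8 in BFC012 (-0.0039 ± 0.24). Sqle, the epoxidase and a rate-limiting step, was at 11.2 and 10.7 in OP9M2, against 11.1 and 11.2 in BFC012 (-0.22 ± 0.19, adjusted p = 0.640). Both genes overlapped between the lines. Lss, the cyclase, differed by -0.12 ± 0.18 with the representing probe set and by 0.80 ± 0.28 (adjusted p = 0.233) with another. Of the enzymes that trim lanosterol to cholesterol, Cyp51 (-0.59 ± 0.18, adjusted p = 0.178) and Sc5d (-0.44 ± 0.14, adjusted p = 0.192) lay lower on both OP9M2 arrays with the representing probe set. The other probe sets of Cyp51 differed by -0.044 and 0.29, and those of Sc5d by -0.0145 and 0.091. Nsdhl (0.69 ± 0.37) and Hsd17b7 (0.77 ± 0.37) lay higher. Their OP9M2 arrays were 1.01 and 1.02 apart. The differences were 1.20 and 1.28 without OP9M2 replicate 2, and 0.19 and 0.26 without replicate 1. Dhcr7, the last reductase, had arrays at 9.61 and 8.52 in OP9M2, against 8.84 and 8.70 in BFC012 (0.29 ± 0.39), and the isomerase Ebp differed by 0.0029 ± 0.15.

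**Figure D3:**
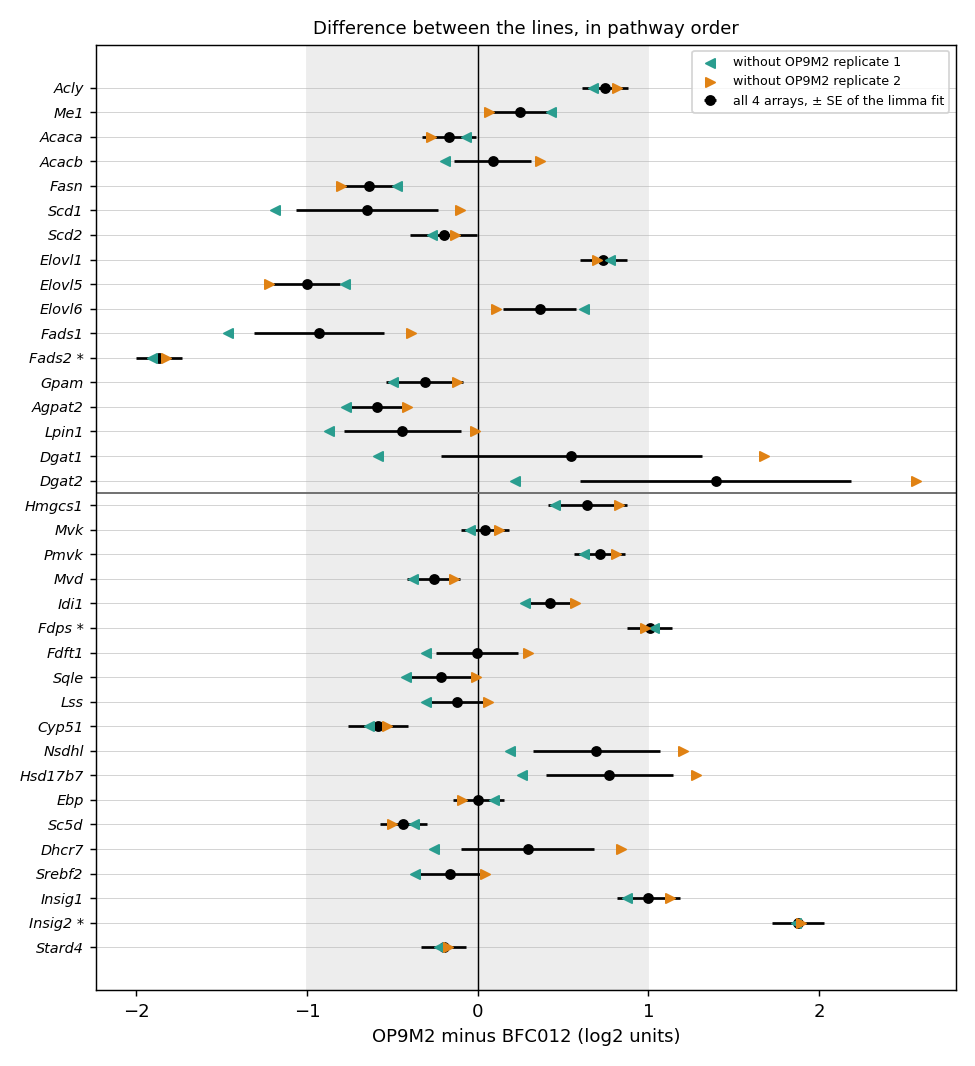
Difference OP9M2 minus BFC012 (horizontal axis, log2 units) of the 36 genes in pathway order, fatty acid and glycerolipid genes above the grey line and sterol genes below it; black points with bars are the fit of all 4 arrays ± SE, triangles pointing left leave out OP9M2 replicate 1, those pointing right leave out OP9M2 replicate 2, the shaded band spans less than 2-fold and an asterisk marks a called gene. Fads2 (-1.91 and -1.82) and Insig2 (1.86 and 1.89) keep their value with either array left out, while Dgat2 moves from 0.22 to 2.57 and Dgat1 from -0.58 to 1.68.

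**Figure D4:**
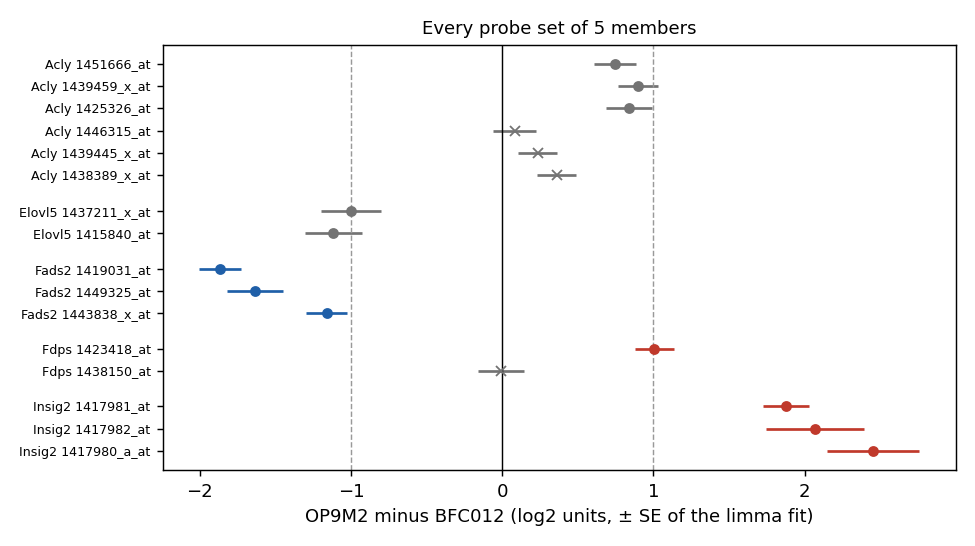
Difference OP9M2 minus BFC012 (horizontal axis, log2 units, ± SE) of every probe set of Acly, Elovl5, Fads2, Fdps and Insig2, with dashed lines at 1 log2 unit in each direction; red points are called higher, blue points called lower and grey points not called, and crosses mark probe sets not above background on any array. The 3 probe sets of Fads2 lie between -1.87 and -1.16 and the 3 of Insig2 between 1.88 and 2.45, while of Fdps only the probe set above background departs from 0.

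Counted over all their probe sets, the 41 of the fatty acid and glycerolipid genes held 3 called lower and 0 called higher, all 3 of Fads2. The 44 of the sterol genes held 5 called higher and 0 called lower, which were the 3 of Insig2, 1 of Fdps and 1 of Hmgcs1. In all, 11 of the 85 were not above background on any array. Over the array, 810 of 45037 probe sets were called higher and 1198 lower (4.46% in either direction). Several of the called member probe sets are of the same gene.

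Genes around these pathways were taken from lists of enzymes and carriers. Of 34 measured genes for fatty acids, NADPH and glycerolipid, 4 were called higher and 1 lower, against 2.36% and 3.56% of all genes. Their median difference was 0.11, and that of all genes was 0.032. Slc25a1, the mitochondrial citrate carrier that feeds Acly, was higher, at 10.9 and 10.6 against 9.45 and 9.67 (1.20 ± 0.19, 2.30-fold, adjusted p = 0.0447). Hacd2, a dehydratase of the chain elongation cycle, was lower, at 10.5 and 10.2 against 11.7 and 11.8 (-1.39 ± 0.17, 2.63-fold, adjusted p = 0.0247). The other 3 called genes were below background on both BFC012 arrays, so that their folds are bounds against the background level. Gpat3, a glycerol phosphate acyltransferase of fat cells, was uneven in OP9M2, at 9.65 and 8.11 (3.35 ± 0.53, at least 6.91-fold, adjusted p = 0.0468). The lipin Lpin3 was at 6.18 and 6.82 (2.12 ± 0.25, at least 1.33-fold, adjusted p = 0.0229) and the mitochondrial malic enzyme Me3 at 7.28 and 6.80 (1.43 ± 0.22, at least 1.92-fold, adjusted p = 0.0445). All 5 still differed by at least 1 with either OP9M2 array left out, and none was called with either BFC012 array left out. Of other enzymes of that cycle, 3 were not called, with Hacd3 at -0.83 ± 0.14 (adjusted p = 0.0536), Tecr at -0.69 ± 0.16 (adjusted p = 0.112) and Hsd17b12 at -0.19 ± 0.13. Srebf1, which encodes the SREBP form tied to fatty acid synthesis, differed by 0.22 ± 0.13 (adjusted p = 0.461).

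Of 10 other sterol genes measured, limma called 0 higher and 1 lower, which was Scap, against 2.36% and 3.56% of all genes. At an unadjusted p under 0.05, 1 was higher and 2 lower, against 10.5% and 12.8% of all genes. Their median difference was -0.31, and that of all genes was 0.032. Of 5 measured genes of sterol efflux and the sterol receptor LXR, Mylip, an LXR target that marks lipoprotein receptors for breakdown, was called higher (11.4 and 10.0 against 6.82 and 7.25, 3.65 ± 0.49, 12.6-fold, adjusted p = 0.0321) and 4 were not called. Mylip differed by 2.97 without OP9M2 replicate 1 and by 4.34 without replicate 2, and was not called without BFC012 replicate 1 or 2. Nr1h3, which encodes a form of LXR, was at 8.41 and 6.81 in OP9M2 and below background on both BFC012 arrays (1.80 ± 0.55, adjusted p = 0.183). Nr1h3 differed by 2.60 without OP9M2 replicate 2 and by 0.997 without replicate 1. The efflux pump Abca1, another LXR target, was at 10.5 and 8.90 in OP9M2, against 10.2 and 10.9 in BFC012 (-0.87 ± 0.59, adjusted p = 0.524), so that OP9M2 replicate 1 lay among the BFC012 arrays and replicate 2 below them. Without OP9M2 replicate 1 Abca1 differed by -1.65 (adjusted p = 0.0687), and without replicate 2 by -0.092.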

How the data were processed

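Total RNA of OP9M2 and BFC012 (2 Affymetrix mouse expression arrays each) had been amplified with an Ambion kit. Each deposited table held 1 intensity per probe set, which the authors had computed by RMA with the affy package, in versions not given in the sources used here. They reached 2958707, above the scanner limit of 65535, and their natural logarithms lay between 2.06 and 14.9, so the natural logarithm was read as the RMA log2 value, although the base is not stated. With log2 of the deposited values each difference would be 1.44 times larger with the same adjusted p.

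Of 45101 probe sets, 64 array controls were left out. In the array annotation 34945 named 1 gene, 932 several and 9160 none; the gene identifiers of 34741 probe sets were found in the RefSeq table, which gave current symbols. The lines were compared in R 4.3.3 by limma 3.58.1 (functions lmFit and eBayes, without covariate, 2 residual and 2.50 prior degrees of freedom, Benjamini-Hochberg over 45037 probe sets, both directions), and the script was tested on simulated data. The number of arrays limits the precision. Where both arrays of a line were below background, a fold is the brighter mean over the background level.

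Array-by-array values were given, by rule, for called members, for Acaca, Fasn, Scd1, Scd2, Sqle, Hmgcs1, Fdft1, Srebf2, Insig1 and Insig2 and for the members with the largest replicate gaps. Those of Acly, Elovl1, Elovl5, Pmvk and Mvd were added after their values were seen. The members and lists were chosen with earlier results of these data known. Some genes of the lists were not analysed here. Alternatives were log2 of the deposited value, quantile normalization, median centring, a filter on low values, the mean of a gene's probe sets, an intensity trend, the replicate number as a block and leaving out each array.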

Additional observations from a re-analysis of the deposited data

How the results depend on the processing

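The calls of Fads2 and Insig2 held under log2 of the deposited value, quantile normalization, median centring and the filter on low values. They also held with the mean of a gene's probe sets and the intensity trend. With either OP9M2 array left out both differences stayed above 1 in size, but the spread there is that of the closer BFC012 arrays alone. The calls were lost with the replicate block and without either BFC012 array. Without a BFC012 array all residual spread is that between the OP9M2 arrays, and the lone BFC012 array is assumed to vary alike. There limma made 0 calls in both directions, with 4568 (without BFC012 replicate 1) and 4517 (without replicate 2) at an unadjusted p under 0.05 and a smallest adjusted p among the members of 0.144 in both. The called sterol genes numbered 1 after centring and with the mean of a gene's probe sets (0.50 for Fdps, whose mean includes a probe set below background), 0 with the replicate block, and 0 to 4 with an array left out. Called fatty acid and glycerolipid genes numbered 0 to 2 higher and 0 to 2 lower with an array left out, and 0 lower with the block.

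The fatty acid and glycerolipid median lay between -0.47 and -0.10 with an array left out, and the sterol median between -0.044 and 0.30, and at 0.20 with the mean of a gene's probe sets. Over the array, 520 were higher and 736 lower with that mean, where fewer features are tested, and 0 to 2181 higher and 0 to 2256 lower with an array left out.

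The labels state no pairing of arrays across the lines. Deviations of same-numbered arrays correlated at -0.10 across probe sets, which cannot decide whether those arrays shared a batch. With the replicate block 245 probe sets were called higher and 462 lower, and adjusted p was 0.0529 for Fads2, 0.0552 for Insig2 and 0.116 for Fdps. A crossed pairing, chosen after seeing the data, called 585 higher and 792 lower, and 1 sterol gene.

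None of the 3 called members changed sign under these alternatives. Of members not called, these did: Acaca (0.041) with the mean of a gene's probe sets, Fdft1 with quantile normalization (0.04) and with that mean (0.19), Lss with that mean (0.20) and Ebp with centring (-0.012). With arrays left out in turn the ranges that crossed 0 were -0.19 to 0.37 for Acacb, -0.41 to 0.013 for Scd2, -0.58 to 1.68 for Dgat1, -0.044 to 0.13 for Mvk, -0.30 to 0.30 for Fdft1, -0.30 to 0.058 for Lss, -0.092 to 0.10 for Ebp, -0.25 to 0.84 for Dhcr7 and -0.36 to 0.044 for Srebf2. The causes were not tested.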
